A study of Mus musculus with 6 samples.

Results

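The genes described here are 32 that encode the enzymes of cholesterol synthesis, the enzymes that make, lengthen and desaturate fatty acids, and the SREBP transcription factors with the proteins that regulate them. They were taken by symbol, whatever their values, from a table of read counts for 54232 genes, and all 32 were found. A count filter left 13602 genes for testing, 30 of the 32 among them; the low counts of Scd1 and Fads2 did not pass it.

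The RNA came from GFP-positive regulatory T (Treg) cells of mouse spleen, a CD4 T cell lineage that restrains immune responses. Of the 6 libraries, 3 were from mice carrying a conventional BAF60b knockout (KO) and 3 from wild-type (WT) mice. BAF60b, encoded by Smarcd2, belongs to the SWI/SNF complex, which remodels chromatin. A conventional knockout is not restricted to Treg cells, and the cells of either genotype carried GFP. The sources used here do not state the deleted exons, the reporter behind the GFP, the age of the mice or whether a library was 1 mouse or a pool. The p-values therefore reflect only how these libraries varied. The question asked of the data is whether transcripts of the lipid synthesis pathway differ between KO and WT Treg cells.

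Animal cells build cholesterol from acetyl-CoA, first through mevalonate and isoprenoid units to squalene, then through a chain of sterols that ends in cholesterol. Fatty acid synthesis starts from the same acetyl-CoA, and desaturases and elongases then shape the products. Both routes are driven by SREBP transcription factors, which SCAP escorts out of the endoplasmic reticulum when sterols are scarce and INSIG proteins hold back when sterols are plentiful; in T cells the pathway is known for its rise on activation, and in Treg cells for its link to proliferation and suppressive function.

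Levels are in CPM, read counts made comparable between libraries by their size and by TMM factors. A log2 fold change is the KO minus the WT value. Each adjusted p is from the quasi-likelihood test of edgeR, corrected over the 13602 genes by Benjamini-Hochberg, and a gene was called when it was under 0.05. Totals lay between 18167053 and 22502804 reads per library, and a count of 0 allows up to 3 reads, or 0.133 to 0.164 CPM, for counting error only. Smarcd2 had 58.2 ± 0.75 CPM in KO and 198.5 ± 6.25 CPM in WT (SD, n = 3 each), or -1.77 on the log2 scale, with adjusted p = 6.77e-08. The Treg marker Foxp3 was at 549.6 CPM or more in all 6 libraries. Summed transcripts of 4 Y-linked genes were 304.7, 0 and 448.0 CPM in KO 1, 2 and 3, against 0, 143.8 and 246.0 CPM in WT 1, 2 and 3. The sum of 8 monocyte and macrophage markers, led by Csf1r and Mpeg1, was 56.5, 123.0 and 20.9 CPM in KO, against 36.2, 46.9 and 43.3 CPM in WT. Of the 7 tested, 0 were called by edgeR, DESeq2 or limma-voom (0 had an unadjusted p under 0.05 in edgeR). Their log2 fold changes were all positive, from 0.26 to 0.81 with a median of 0.63. Csf1r was called higher in edgeR with no filter (adjusted p = 0.000278) and without KO 3 (0.0184). Without KO 2 its log2 fold change was -0.091. In bulk RNA, fewer cells of a type and less RNA per cell cannot be told apart.

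Most genes of the pathway were close in KO and WT Treg cells. Of the 30 tested, 1 was called, the sterol enzyme gene Nsdhl, which fell in KO, and 0 were called higher. That is 3.33% of the members, beside 6.45% of all tested genes called in either direction, 3.25% called higher and 3.2% called lower. An unadjusted p under 0.05 was reached by 5 of 30 (16.7%), namely Nsdhl, Sc5d and Acly with lower values in KO and Elovl6 and Scd2 with higher ones, beside 20.4% of all genes. The KO and WT values did not overlap for 3 members that were higher in KO (10%, beside 12.6% of all genes) and for 4 that were lower (13.3%, beside 13% of all genes). These shares were near or below those of all genes. DESeq2 called 3 members and limma-voom 1.

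The log2 fold changes of the 30 ran from -0.38 to 0.33, with a median of -0.04 beside 0.0040 for all genes; 13 were positive and 17 negative. For 28 of the 30 the whole 95% interval of the difference lay within a 1.5-fold change either way, a share of 93.3% beside 68.4% of all genes. The exceptions were Fdps, the member with the fewest reads among those tested, and Tm7sf2. Members and all genes were not matched for read depth, on which the width of an interval depends. The data therefore bound the difference for most members, and do not show that any of them was the same in KO and WT.

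**Figure D1:**
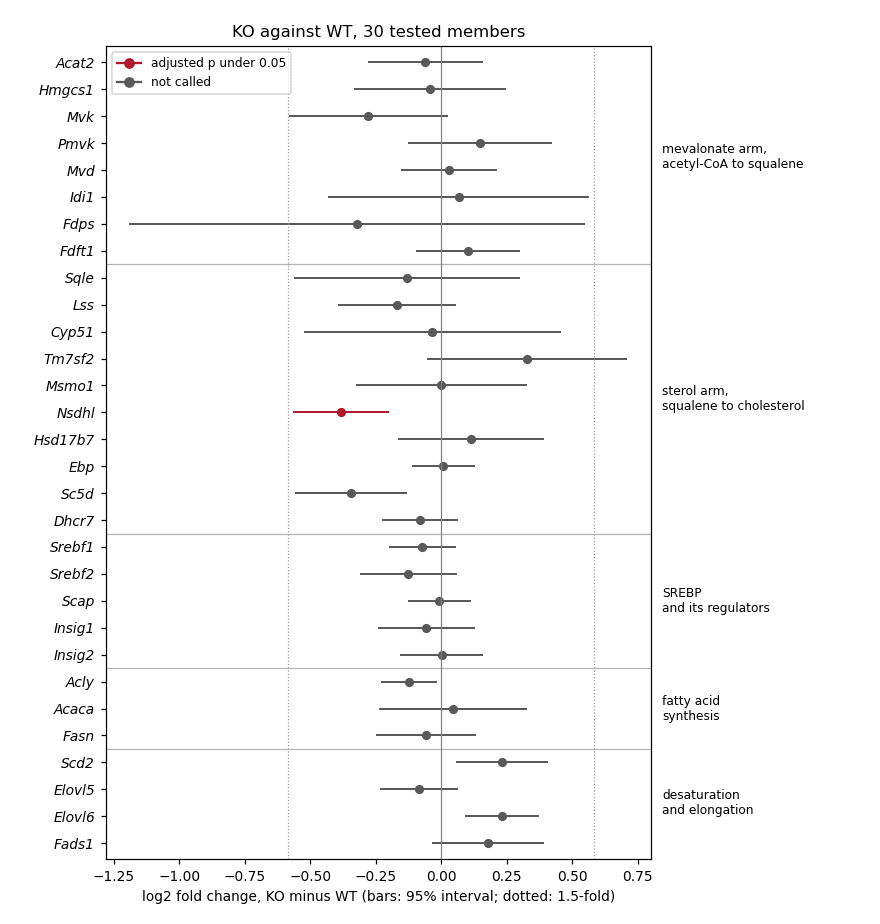
Log2 fold change, KO minus WT, of the 30 tested genes in the order of the pathway, with 95% intervals as bars and a 1.5-fold change as dotted lines. Nsdhl, in red, is the 1 gene called, and all intervals but those of Fdps and Tm7sf2 lie between the dotted lines.

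Levels between genes were compared as CPM per kilobase of exon. The highest by far were Elovl5, an elongase of polyunsaturated fatty acids, at 86.7 in KO and 92.01 in WT, and Acly, the ATP citrate lyase that makes cytosolic acetyl-CoA, at 63.6 in KO and 69.2 in WT. Srebf2, the SREBP gene tied most closely to cholesterol synthesis, followed at 38.2 and 41.7 CPM per kilobase in KO and WT. Below it stood the stearoyl-CoA desaturase gene Scd2, with 28.1 in KO and 23.9 in WT, and the sterol isomerase gene Ebp, with 23.4 in KO and 23.3 in WT. Enzyme genes of the mevalonate arm lay lower, between 0.102 for Fdps and 16.5 for Mvd in KO, and between 0.128 and 16.2 for the same genes in WT. The closely related desaturase genes were unequal: on this per-length scale Scd1, the main form of liver, had 0.064 in KO and 0.037 in WT. Fads2, the delta-6 desaturase gene, had 0 reads in every KO library and 1, 2 and 0 reads in WT 1, 2 and 3, at or under the floor of 3 reads, so no fold is given.

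**Figure D2:**
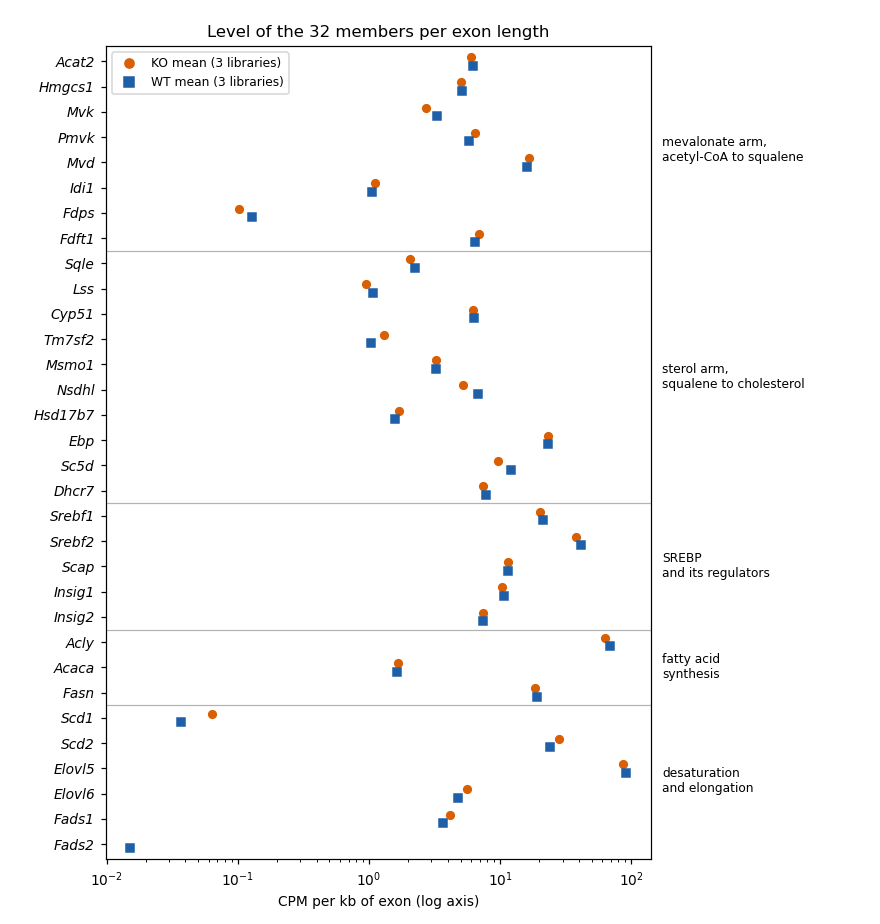
Mean level of each of the 32 genes in CPM per kilobase of exon on a log axis, KO circles and WT squares, 3 libraries each. Elovl5, Acly and Srebf2 are highest and Fdps, Scd1 and Fads2 lowest; Fads2 had no KO read, so only its WT mean is drawn.

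The mevalonate arm, from acetyl-CoA to squalene, held 8 tested genes, and 0 were called (0 with an unadjusted p under 0.05 in edgeR, and 0 in DESeq2 or limma-voom), with a median log2 fold change of -0.0069. Summed over the arm, the libraries had 127.7, 112.0 and 122.5 CPM in KO and 113.8, 113.1 and 132.7 CPM in WT, so the genotypes overlapped. Hmgcs1, which encodes the HMG-CoA synthase of the pathway, had 26.4, 21.0 and 21.7 CPM in KO, against 22.6, 20.4 and 28.2 CPM in WT. Its log2 fold change was -0.04 (SE 0.13, 95% interval -0.33 to 0.24, adjusted p = 0.894). Mvk, the mevalonate kinase gene, had 7.49, 6.67 and 7.61 CPM in KO and 9.21, 7.45 and 9.78 CPM in WT. Its ranges overlapped by the lowest WT library, and its log2 fold change was -0.28 (adjusted p = 0.283, SE 0.13). The genes of the next kinase and the decarboxylase, Pmvk and Mvd, had log2 fold changes of 0.15 and 0.03. Acat2, the cytosolic thiolase gene at the start of the arm, had -0.06. Fdft1, the squalene synthase gene, had 0.10, with exons that share 774 bases with Ctsb on the opposite strand. Ctsb had 42483 reads in all and Fdft1 3425, and the sources used here do not say whether counting used strand, which makes the Fdft1 count uncertain. Fdps, the farnesyl diphosphate synthase gene, had only 59 reads in all 6 libraries, with 8, 6 and 13 in KO and 8, 12 and 12 in WT, and the interval of its log2 fold change ran from -1.19 to 0.55. Of the 4208 exon bases of Fdps, 1124 are shared with Gm43738 on the same strand, which had 0 reads. Near-identical copies of Fdps in the genome can also take or lose its reads, so its level is uncertain too.

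The sterol arm, from squalene to cholesterol, held 10 genes. The gene that fell was Nsdhl (ENSMUSG00000031349, chromosome X, 72918557 to 72958514, plus strand, mm10), which encodes the sterol dehydrogenase that helps to strip methyl groups from the sterol ring at carbon 4. Its level was 14.4, 15.3 and 14.6 CPM in KO, against 18.3, 19.5 and 20.02 CPM in WT, from 287 to 331 reads per KO library and 334 to 409 per WT library. Every KO library was below every WT library, and the spread within a genotype was narrow, with the highest library 1.06 times the lowest in KO and 1.09 times in WT. The means were 14.8 ± 0.47 CPM in KO and 19.3 ± 0.88 CPM in WT (SD, n = 3 each), 0.767 times the WT level, with a log2 fold change of -0.38 (SE 0.08, 95% interval -0.56 to -0.20, adjusted p = 0.0201). The exact permutation test of a single gene with 3 against 3 libraries cannot go below p = 0.1. With the male share of the libraries added as a covariate, the log2 fold change was -0.38 (adjusted p = 0.0306). Leaving out KO 1 (adjusted p = 0.0596), WT 1 (0.0516), WT 2 (0.0844) or WT 3 (0.0734) ended the call, with log2 fold changes between -0.42 and -0.36, and adjusted p-values between 0.00622 and 0.0844, over all 17 alternatives.

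Sc5d (ENSMUSG00000032018, chromosome 9, 42251595 to 42264256, minus strand, mm10), which encodes the sterol desaturase acting near the end of the chain, had 54.6, 41.7 and 43.5 CPM in KO and 59.0, 61.6 and 56.8 CPM in WT. All KO values were lower than all WT values, but KO 1 stood close to WT while KO 2 and KO 3 were well below. The log2 fold change was -0.34 (SE 0.09, 95% interval -0.55 to -0.13) with adjusted p = 0.0616, so Sc5d was not called. Without KO 1 it was -0.47 and the gene was called (adjusted p = 0.00522). It was called as well by DESeq2 (adjusted p = 0.0121), without the count filter (0.000196) and with the replicate number as a block (0.0488), and over the 17 alternatives its adjusted p was between 0.000196 and 0.202. Lss, which encodes the enzyme that closes squalene epoxide into lanosterol, had 10.95, 9.67 and 10.4 CPM in KO and 11.5, 11.2 and 12.2 CPM in WT. Those ranges did not overlap either, with a log2 fold change of -0.17 and adjusted p = 0.386.

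The enzymes on each side of Nsdhl in the chain gave other values. Msmo1, which encodes the methylsterol oxidase acting just before it, had 24.5, 18.7 and 16.7 CPM in KO, against 19.3, 17.7 and 22.8 CPM in WT. Its log2 fold change was 0.00083 (SE 0.14, 95% interval -0.32 to 0.32, adjusted p = 0.997). Hsd17b7, the ketoreductase gene acting just after, had 8.64, 9.16 and 8.36 CPM in KO and 7.45, 7.499 and 9.23 CPM in WT, with a log2 fold change of 0.11 (adjusted p = 0.676, SE 0.12). Ebp, the sterol isomerase gene, lies like Nsdhl on chromosome X. It had 52.1, 54.5 and 55.4 CPM in KO and 53.4, 53.5 and 54.2 CPM in WT, all 6 within a narrow band, and its log2 fold change of 0.0072 had a 95% interval from -0.11 to 0.12. Dhcr7, which encodes the reductase for the sterol double bond at carbon 7, had -0.08 (adjusted p = 0.539). Tm7sf2, a sterol reductase gene acting at carbon 14, had 5.08, 5.19 and 7.03 CPM in KO and 5.04, 4.30 and 4.49 CPM in WT, the highest log2 fold change of the 30 at 0.33 but with adjusted p = 0.323. Its exons share 532 bases with Vps51 on the same strand, so this count is uncertain.

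**Figure D3:**
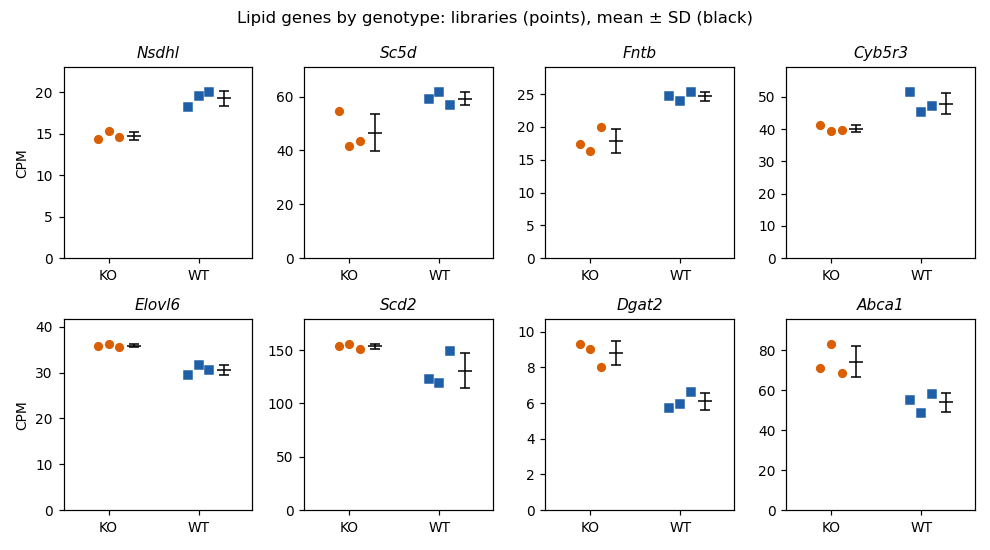
CPM of 8 lipid genes in the 3 KO libraries (circles, left) and the 3 WT libraries (squares, right), with mean ± SD in black. KO values are below all WT values for Nsdhl, Sc5d, Fntb and Cyb5r3 and above all WT values for Elovl6, Scd2, Dgat2 and Abca1.

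Several sterol genes differed more between libraries of 1 genotype than between KO and WT. Cyp51, which encodes the lanosterol demethylase, had 38.5, 19.8 and 23.6 CPM in KO and 23.5, 26.7 and 33.6 CPM in WT. The highest KO library had 1.94 times the lowest, and the log2 fold change between genotypes was -0.03 (SE 0.22, 95% interval -0.52 to 0.45, adjusted p = 0.954). Exons of Cyp51 share 166 bases with Akap9 on the opposite strand, with 14850 reads in all for Akap9 and 3344 for Cyp51. Sqle, the squalene epoxidase gene, had 14.9, 9.16 and 10.3 CPM in KO and 10.9, 11.2 and 15.4 CPM in WT. Idi1, the isomerase gene of the isoprenoid units, had 5.13, 3.10 and 3.49 CPM in KO and 3.45, 3.34 and 4.39 CPM in WT. For Cyp51, Sqle, Idi1, Msmo1, Hmgcs1 and Acaca alike, KO 1 was the highest KO library and WT 3 the highest WT library. The ratio of the highest to the lowest KO library passed 1.4 for 6 members: Cyp51 (1.94), Fdps (1.88), Idi1 (1.65), Sqle (1.62), Msmo1 (1.47) and Acaca (1.44). The median ratio over the 30 members was 1.16 in KO and 1.16 in WT, beside 1.16 in KO and 1.14 in WT over all genes.

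Over the 30 members KO 1 was the highest KO library for 17 (56.7%, beside 31.4% of all genes) and KO 2 the lowest for 17 (56.7%, beside 31.8%). Among the WT libraries, WT 3 was highest for 22 (73.3%, beside 35.2%) and WT 1 lowest for 16 (53.3%, beside 32.1%). The members share a library, so these counts describe 6 libraries and carry no test. KO 2, which was lowest for most members, was also the library with 0 CPM of Y-linked transcripts and the highest macrophage marker sum among the KO libraries, and WT 1, lowest for most members in WT, had 0 CPM of Y-linked transcripts and the lowest macrophage marker sum there; the part of sex or of other cells in these levels was not tested. The median log2 fold change of the members depended on these libraries: it was -0.13 without KO 1 and 0.0024 without KO 2, beside 0.0060 and -0.0022 over all genes in the same fits.

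**Figure D4:**
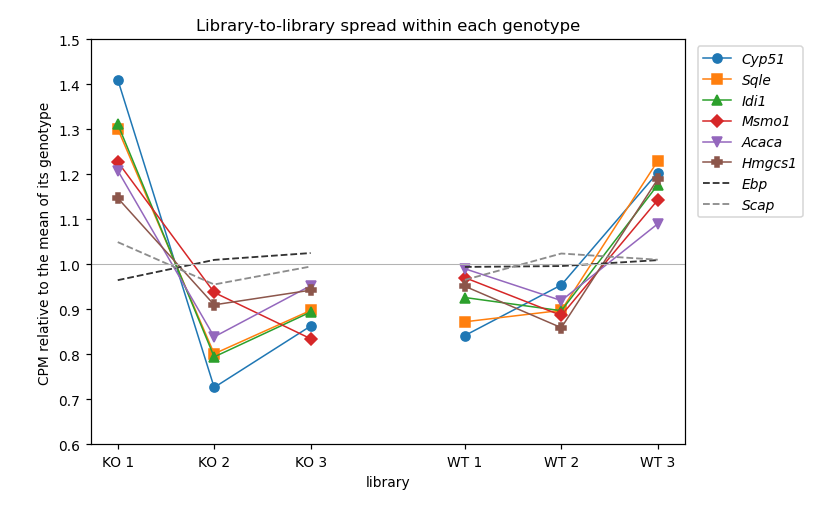
CPM of 8 members in each library, relative to the mean of the same gene in its genotype; lines only join the points of 1 gene, since libraries have no order. Cyp51, Sqle, Idi1, Msmo1, Acaca and Hmgcs1 are highest in KO 1 and in WT 3, while Ebp and Scap (dashed) stay near 1.

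Promoter sequence is given for 4 sterol genes: Nsdhl and Sc5d, with values lower in KO, and Cyp51 and Hmgcs1, with overlapping groups. For Cyp51 the highest library had 1.94 times the lowest in KO and 1.43 times in WT, and for Hmgcs1 1.26 and 1.38 times. Windows of 300 bases, from 250 before to 50 after the annotated start, came from RefSeq (GRCm38.p6), which held 34 windows for 26 of the 32 genes. Each is written 5′ to 3′ on the gene's own strand; capitals mark the NF-Y box CCAAT, or ATTGG where it lies on the other strand, and the core of the sterol regulatory element TCACNCCAC, to which SREBP binds. The windows are chrX:72918271-72918570 (plus strand) for Nsdhl, chr9:42264251-42264550 (minus strand) for Sc5d, chr5:4104648-4104947 (minus strand) for Cyp51 and chr13:119690101-119690400 (plus strand) for Hmgcs1.
Nsdhl: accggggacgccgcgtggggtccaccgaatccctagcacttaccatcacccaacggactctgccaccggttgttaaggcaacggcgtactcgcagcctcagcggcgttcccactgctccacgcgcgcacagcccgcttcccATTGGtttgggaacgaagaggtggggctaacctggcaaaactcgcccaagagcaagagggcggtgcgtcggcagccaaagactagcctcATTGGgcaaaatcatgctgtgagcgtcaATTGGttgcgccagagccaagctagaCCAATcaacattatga
Sc5d: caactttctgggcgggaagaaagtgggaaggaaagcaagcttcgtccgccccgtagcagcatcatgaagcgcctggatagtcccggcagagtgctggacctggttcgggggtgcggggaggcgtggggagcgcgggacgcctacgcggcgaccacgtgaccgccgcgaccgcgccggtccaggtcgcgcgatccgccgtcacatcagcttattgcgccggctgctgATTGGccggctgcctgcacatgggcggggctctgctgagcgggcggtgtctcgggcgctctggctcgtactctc
Cyp51: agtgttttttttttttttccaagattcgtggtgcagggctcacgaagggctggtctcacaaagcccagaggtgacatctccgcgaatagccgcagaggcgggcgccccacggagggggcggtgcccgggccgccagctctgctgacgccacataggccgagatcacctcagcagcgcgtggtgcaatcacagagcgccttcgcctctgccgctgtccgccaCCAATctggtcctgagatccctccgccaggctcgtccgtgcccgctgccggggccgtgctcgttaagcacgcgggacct
Hmgcs1: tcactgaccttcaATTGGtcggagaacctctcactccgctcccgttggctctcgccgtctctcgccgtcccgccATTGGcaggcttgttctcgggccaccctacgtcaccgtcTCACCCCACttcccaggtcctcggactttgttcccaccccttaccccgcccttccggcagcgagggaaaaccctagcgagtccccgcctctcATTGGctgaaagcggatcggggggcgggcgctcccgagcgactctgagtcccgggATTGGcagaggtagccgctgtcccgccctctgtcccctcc

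Hmgcs1 was the only 1 of the 26 genes with an exact match to the element core in these windows. It lay on the plus strand with its first base at -137 from the start, and 1.24% of all 32851 promoter windows held a match. Sites that differ from the core by any base were not searched for, so a window without a match can still hold a site for SREBP. The NF-Y box, bound by a factor that works beside SREBP at sterol genes, stood in windows of 21 of the 26 genes, in 22 of the 34 windows, beside 37.4% of all windows. The Nsdhl window held 4, the Hmgcs1 window 4, and the Sc5d and Cyp51 windows 1 each. The Sp1 box GGGCGG was in 25 of the 34 windows, also of 21 genes, beside 35.7% of all windows. The E-box CACGTG, a site for SREBP and other factors of the helix-loop-helix class, was in windows of 6 genes, Sc5d among them, in 7 of the 34 beside 7.15% of all. All motifs were searched on both strands, and none is contained in another. Nsdhl, which was called, and Cyp51, which was not, thus both held the NF-Y and Sp1 boxes and no exact match to the element core in the window searched.

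The 5 genes of SREBP and its regulators held 0 calls (0 with an unadjusted p under 0.05 in edgeR, and 0 in DESeq2 or limma-voom), and their 95% intervals all lay between -0.31 and 0.16 on the log2 scale. Srebf2, the SREBP gene of the cholesterol branch, had 312.4, 246.4 and 265.5 CPM in KO and 283.2, 305.3 and 310.6 CPM in WT. KO 1 was the highest of all 6 libraries and KO 2 the lowest, and the log2 fold change was -0.13 (adjusted p = 0.438, SE 0.08). Srebf1, which encodes the SREBP forms tied to fatty acid synthesis, had 118.2, 117.3 and 106.3 CPM in KO, against 120.2, 124.3 and 114.9 CPM in WT, with a log2 fold change of -0.07 (adjusted p = 0.524, SE 0.06). Its exons share 109 bases with Rai1 on the opposite strand. Scap, the escort gene, had 85.8 ± 4.06 CPM in KO and 86.3 ± 2.64 CPM in WT, a difference smaller than the SD of either genotype, whose sign turned with upper-quartile or library-size scaling. Insig1 and Insig2, which encode the retention proteins, had log2 fold changes of -0.06 and 0.0018. Insig1, itself a target of SREBP, had 35.5, 29.6 and 30.3 CPM in KO and 34.0, 33.3 and 31.9 CPM in WT.

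The 3 genes of fatty acid synthesis held 0 calls (1 with an unadjusted p under 0.05 in edgeR, and 0 in DESeq2 or limma-voom). Acly had 346.6, 331.1 and 330.3 CPM in KO and 370.3, 355.2 and 371.2 CPM in WT. Every KO value was below every WT value, though by little: the log2 fold change was -0.12 (SE 0.05, 95% interval -0.22 to -0.02, adjusted p = 0.171). Acaca, which encodes the acetyl-CoA carboxylase that commits acetyl-CoA to fatty acids, had 34.7, 24.1 and 27.3 CPM in KO and 27.6, 25.6 and 30.4 CPM in WT, with a log2 fold change of 0.04 (adjusted p = 0.891, SE 0.13). Fasn, the fatty acid synthase gene, had 227.6, 182.6 and 198.2 CPM in KO and 197.4, 205.6 and 230.4 CPM in WT, with a log2 fold change of -0.06 (adjusted p = 0.761, SE 0.08). Both overlapped between genotypes.

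Desaturase and elongase genes had the highest median log2 fold change of the arms, 0.20 over 4 tested genes of 6, with 0 called in edgeR, where 2 had an unadjusted p under 0.05; DESeq2 called 1 and limma-voom 0. Elovl6, the elongase gene for saturated and monounsaturated chains (ENSMUSG00000041220, chromosome 3, 129532355 to 129638495, plus strand, mm10), had 35.8, 36.2 and 35.6 CPM in KO, against 29.4, 31.6 and 30.7 CPM in WT. The 3 KO libraries lay within 1.015 times of each other and above all WT libraries. The log2 fold change was 0.23 (SE 0.06, 95% interval 0.09 to 0.37), with adjusted p = 0.0560, and between 0.0421 and 0.201 over the 17 alternatives. It passed with upper-quartile factors (adjusted p = 0.0421), with library size only (0.0493) and with genes of at least 2 CPM (0.0456).

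Scd2 (ENSMUSG00000025203, chromosome 19, 44293676 to 44306864, plus strand, mm10) had 154.1, 155.5 and 150.6 CPM in KO, against 123.4, 119.1 and 149.2 CPM in WT. WT 3 stood beside the KO libraries, and WT 1 and WT 2 were lower. The log2 fold change was 0.23 (SE 0.08, 95% interval 0.06 to 0.41) with adjusted p = 0.118. Without WT 3 the log2 fold change was 0.34 and the gene was called (adjusted p = 0.0119), and DESeq2 (0.0475) and a fit with no filter (0.00838) called it as well, with an adjusted p of up to 0.360 in the other alternatives. Fads1, the delta-5 desaturase gene, had 22.0, 19.9 and 18.2 CPM in KO and 17.98, 16.4 and 18.8 CPM in WT, with a log2 fold change of 0.18 (adjusted p = 0.336). Elovl5 had 313.8, 277.2 and 325.2 CPM in KO and 310.7, 320.9 and 340.6 CPM in WT, with -0.09 (adjusted p = 0.523). Scd1, not tested, had 9, 7 and 3 reads in KO and 2, 7 and 2 reads in WT, and Scd2 had 2251 reads or more in every library, so most reads assigned to this pair were those of Scd2.

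**Figure D5:**
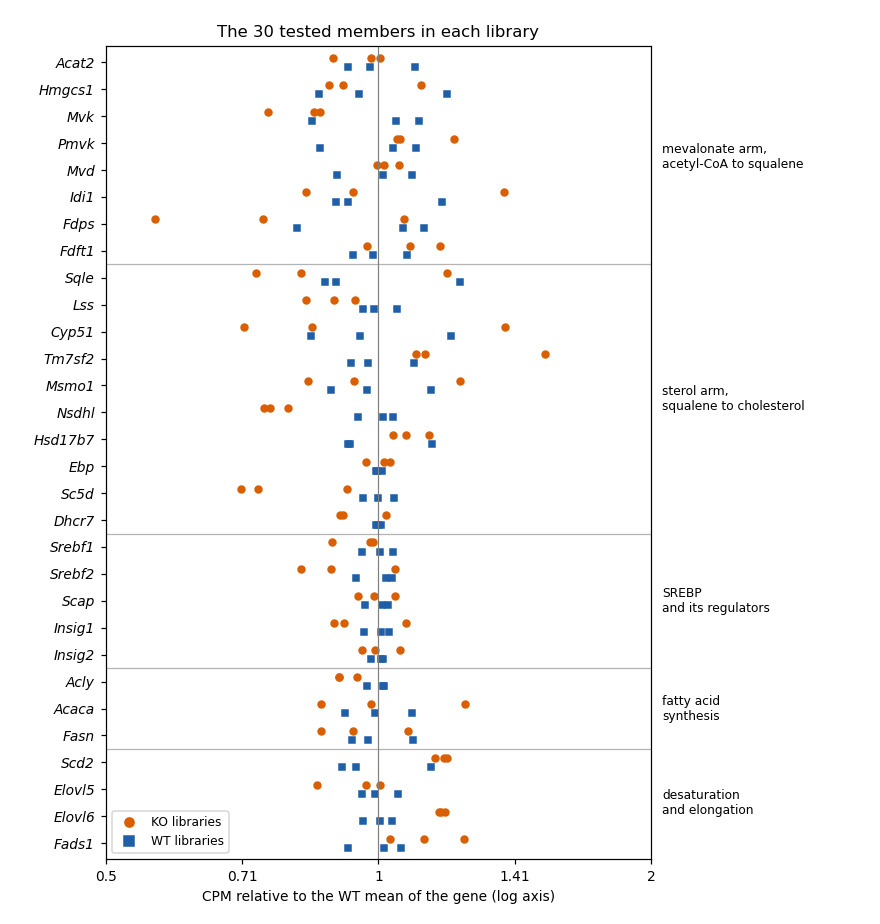
CPM of each of the 30 tested genes in every library, relative to the WT mean of the same gene, on a log axis; KO circles, WT squares. KO and WT points are apart for Lss, Nsdhl, Sc5d and Acly (KO lower) and for Tm7sf2, Scd2 and Elovl6 (KO higher), and overlap for the rest.

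Genes around the pathway were counted by list, with 6.45% of all tested genes called and 20.4% at an unadjusted p under 0.05 as the background. Of 11 tested genes of 12 in the wider cholesterol and isoprenoid list, 0 were called higher and 1 lower (9.09%), and 3 had an unadjusted p under 0.05 (27.3%). The gene called lower was Cyb5r3, which encodes a cytochrome b5 reductase that passes electrons to sterol and fatty acid desaturases. It had 41.4, 39.5 and 39.7 CPM in KO, against 51.4, 45.3 and 47.1 CPM in WT, with no overlap. The log2 fold change was -0.25 (adjusted p = 0.0460, SE 0.06), and the call was lost in 12 of 17 alternatives, including any 1 library left out, with adjusted p-values between 0.0137 and 0.165 over the 17. In the pathway of terpenoid backbones of the deposited annotation, 1 of 20 tested genes was called, Fntb, which encodes the beta subunit of the farnesyltransferase that attaches an isoprenoid from this pathway to proteins; it is named here after its values were seen. It had 17.4, 16.4 and 19.9 CPM in KO, against 24.7, 24.0 and 25.3 CPM in WT, clear of each other. Its log2 fold change was -0.46 (adjusted p = 0.0130, SE 0.09), lost when any 1 WT library was left out (highest adjusted p = 0.0619). Its exons share 257 bases with Churc1 on the same strand, so the count is uncertain. The pathway of steroid biosynthesis held 15 tested genes and 1 call, Nsdhl again, and those of fatty acid biosynthesis (11 tested) and of unsaturated fatty acids (17 tested) held 0 in edgeR and limma-voom and 1 each in DESeq2, with 3 and 4 genes at an unadjusted p under 0.05 in edgeR.

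Sterol handling outside synthesis was measured beside it. Of 13 genes of SREBP processing and turnover, 0 were called in edgeR, DESeq2 or limma-voom and 4 (30.8%) had an unadjusted p under 0.05 in edgeR. Of 11 tested genes of sterol uptake and transport, 0 were called by any of the 3 tools and 3 (27.3%) had an unadjusted p under 0.05 in edgeR. The smallest p there was that of Gramd1b, which encodes a carrier of cholesterol from the plasma membrane to the endoplasmic reticulum, at 130.9 ± 3.19 CPM in KO and 116.9 ± 1.88 CPM in WT (log2 fold change 0.16, adjusted p = 0.0609). It was called with upper-quartile factors (adjusted p = 0.0383), with library size only (0.0463), with genes of at least 2 CPM (0.0398) and without KO 3 (0.0487), and reached an adjusted p of 0.225 in another of the 17 alternatives. Among 11 tested genes of sterol efflux, storage and the sterol-sensing LXR receptors, 1 rose (9.09%) and 0 fell, and 2 (18.2%) had an unadjusted p under 0.05.

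The gene that rose was Abca1, which encodes the pump that exports cholesterol to lipoproteins. It had 71.2, 83.1 and 68.6 CPM in KO, against 55.4, 48.5 and 58.0 CPM in WT. All KO libraries were above all WT libraries, with a log2 fold change of 0.46 (adjusted p = 0.0125, SE 0.09), and the call was lost without WT 1 (adjusted p = 0.0582) or WT 2 (0.0639), the highest values among 17 alternatives that went down to 1.33e-07. The summed macrophage markers were highest in KO 2, where Abca1 was highest, and lowest in KO 3, where Abca1 was above every WT library; the part of other cells in the Abca1 values was not tested.

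Of 18 tested genes of 26 in the wider list of fatty acid synthesis, activation and elongation, 0 were called in edgeR and limma-voom, 1 in DESeq2, and 6 (33.3%) had an unadjusted p under 0.05 in edgeR. The smallest p was that of the acyltransferase gene Agpat5 (21.0 ± 1.66 CPM in KO and 26.9 ± 2.61 CPM in WT, log2 fold change -0.35, adjusted p = 0.0546). It was called lower by DESeq2 (adjusted p = 0.0346), with no filter (0.0044), with robust dispersion (0.0364), with the replicate block (0.0307) and with the male share (0.0276), and reached an adjusted p of 0.181 in another of the 17 alternatives. Of 21 tested genes of 26 in fatty acid uptake, storage and oxidation, 1 rose (4.76%) and 0 fell, and 5 (23.8%) had an unadjusted p under 0.05. The median log2 fold change of this list was -0.10, with 3 positive and 18 negative, beside 0.0040 for all genes. The gene that rose was Dgat2, which encodes an enzyme of the last step of triglyceride synthesis. It had 9.30, 9.06 and 8.05 CPM in KO, against 5.70, 5.97 and 6.60 CPM in WT, with no overlap. The log2 fold change was 0.53 (adjusted p = 0.0315, SE 0.12); the call was lost with the replicate block (adjusted p = 0.0652) and when any library but KO 3 was left out (highest adjusted p = 0.134).

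Markers of proliferation and of cell types were measured in the same libraries. Of all tested genes, 3.25% were called higher and 3.2% lower, or 6.45% in either direction. Summed over 10 proliferation genes the level was 392.9 to 431.7 CPM in KO and 362.0 to 388.4 CPM in WT, with no overlap. Taken singly, 3 of the 10 (30%) were higher in KO with no overlap, beside 12.6% of all genes. In the edgeR test 2 of the 10 (20%) were called higher, Mki67 (log2 fold change 0.63, adjusted p = 0.00219) and Top2a (0.53). An unadjusted p under 0.05 was reached by 3 of the 10 (30%, beside 20.4% of all genes), and 1 of these 3 was lower in KO. Log2 fold changes were positive for 8 of the 10 and negative for 2. Of 8 Treg and T cell markers, 1 rose (12.5%), Ikzf2. Of 5 tested B and plasma cell markers 2 rose and 1 fell (60% called), at a summed 19.2 to 39.5 CPM in KO and 21.6 to 25.3 CPM in WT. The lowest genotype mean among the 5 was 0.185 CPM, close to the floor of 3 reads. Without WT 1 the calls of Cd22 (adjusted p = 0.0594), Cd79b (0.0571) and Sdc1 (0.0695) were all lost. Of 5 tested NK and CD8 T cell markers 2 fell (40%), Klrb1c and Prf1, at a summed 25.6 to 29.1 CPM in KO and 28.9 to 33.5 CPM in WT. In edgeR 3 of the 5 had an unadjusted p under 0.05 (60%, beside 20.4% of all genes), 2 lower and 1 higher in KO. The call was lost in 6 of 16 alternatives for Klrb1c and in 3 of 17 for Prf1. Ncr1 was at 0 in all WT libraries and at most 0.254 CPM in KO. Erythroid and platelet markers summed to 3.22, 13.2 and 0.796 CPM in KO and to 3.73, 1.48 and 1.82 CPM in WT. Their part in the values of the lipid genes was not tested.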

How the data were processed

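The authors deposited raw read counts, whole numbers with no scaling applied, for each gene in each library. Tools in the submitters' processing notes are HISAT2 2.1.0, fastp 0.23.2, DESeq2 1.34.0 and Picard, with build mm10; the sources used here do not name the counter, its strand setting or the treatment of duplicates. Genes were kept by filterByExpr (minimum count 10, minimum total 15), scaled by TMM and tested with edgeR 4.0.16 in R 4.3.3, genotype only, with all 6 libraries. The SE and 95% interval come from the quasi-likelihood F and its degrees of freedom. Exon lengths and overlaps are from GENCODE M21. No pair of libraries of 1 genotype agreed within sampling noise (chi-square per degree of freedom at least 5.03). Pairs of KO libraries gave 10.1, 10.8 and 13.3, and pairs of WT libraries 5.03, 7.23 and 9.00. Pairs across genotypes gave 9.75 (KO 1 with WT 3) to 17.9 (KO 3 with WT 2). The steps were tested on simulated counts in which each gene varied on its own. That test does not cover differences that many genes of a library share.

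The members, the other lists and the alternatives were chosen with earlier results of these data known. Named are the members, Smarcd2, Foxp3 and, from each other list, the called genes or the 1 with the smallest p; other genes were chosen after their values were seen. Some genes of these lists are not reported here. Other fits used RLE, upper-quartile or library-size scaling, no filter, a mean of at least 2 CPM, removal of 653 antigen receptor and immunoglobulin segments, DESeq2 1.42.0, limma-voom (limma 3.58.1), robust dispersion, the replicate block, the male share (summed Y-linked CPM over that of the highest library) and each library left out.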

Additional observations from a re-analysis of the deposited data

How the results depend on the processing

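Over all genes, 442 were called higher and 435 lower; with no filter 812 and 812, and with 1 library left out 167 to 471 higher and 170 to 400 lower. Members called higher numbered 0, or 1 with upper-quartile factors, library size only, no filter, a mean of at least 2 CPM or DESeq2, and 0 to 1 with 1 library left out. Members called lower numbered 1, or 2 with no filter, DESeq2 or the replicate block, and 0 to 1 with 1 library left out. The labels give replicate numbers but no batch, litter or day. Same-numbered KO and WT libraries had correlations of their deviations of -0.26, -0.06 and 0.22, and KO 2 correlated best with WT 1 (0.39). These values showed no pairing by replicate number, but with 3 libraries per genotype they cannot settle whether libraries were paired. With the block, Sc5d and Agpat5 gained and Dgat2 and Cyb5r3 lost a call.

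Among the named genes, signs turned for log2 fold changes between -0.13 and 0.07 and for Uty and Csf1r: Scap with upper-quartile factors (0.0069) and library size (0.0030); Msmo1, Ebp and Insig2 with no filter (-0.0079, -0.0012 and -0.0070); Msmo1 and Insig2 in limma-voom (-0.015 and -0.0015); Msmo1 with the block (-0.0092); and with the male share Mvd (-0.015), Idi1 (-0.040), Msmo1 (-0.016), Acaca (-0.032) and Uty (-1.20). With 1 library left out the values ranged from -0.17 to 0.20 for Idi1, -0.17 to 0.12 for Msmo1, -0.11 to 0.15 for Acaca, -0.15 to 0.10 for Hmgcs1, -0.36 to 0.14 for Cyp51, -0.011 to 0.032 for Ebp, -0.044 to 0.019 for Scap, -0.041 to 0.033 for Insig2, -0.15 to 0.0080 for Fasn, -0.045 to 0.094 for Mvd, -0.12 to 0.0097 for Acat2, -0.36 to 0.044 for Sqle and -0.091 to 1.22 for Csf1r. The interval was widest for Fdps, the tested member with the fewest reads. The causes were not tested.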
